A study of Mus musculus with 3 samples.

Results

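PHF10 peaks were examined at 9 genes of spliceosomal small nuclear RNAs (snRNAs) and small nucleolar RNAs (snoRNAs) in the mouse brain. The genes were Rnu1a1, Gm22068 and Gm22513 (U1), Rnu11 (U11), Rnu3b1 and Rnu3b3 (U3), Gm24265 (U4), Snord118 (U8) and Snord49b. They were selected because a peak of at least 1 of the PHF10 replicates lay within 250 bp of the gene in the GENCODE M21 annotation of mm10. All the values of these peaks are therefore given as a description and without a test. PHF10 peaks lay near 10 of the 2912 annotated snRNA, snoRNA and scaRNA genes, or 0.343%, and the genes described here were 9 of these 10. The peaks of both replicates formed 303 sites in the genome, 301 of them on nuclear chromosomes.

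U1 and U11 RNAs recognize the 5′ splice sites of the major and the minor class of introns, and U4 RNA joins the spliceosome paired with U6 RNA. U3 and U8 are box C/D snoRNAs that take part in the processing of ribosomal RNA precursors, and Snord49b belongs to the box C/D snoRNAs that guide methylation of RNA and are made from introns of other genes. Genes of U1, U3, U4, U8 and U11 have their own promoters and are read by RNA polymerase II, with a proximal sequence element bound by the SNAPc complex upstream of the start and a 3′ box downstream of the end. PHF10 is a subunit of PBAF, a chromatin-remodelling complex of the SWI/SNF family.

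The experiment comprised 2 PHF10 immunoprecipitations and 1 control immunoprecipitation, all from C57BL/6 mice (C57BL/6J in the methods). The description of the control sample reads preimmune control. The methods name both control rabbit IgG and a pre-immune control, and the control is called IgG here. The sample labels give brain at 120 days after birth, and their protocol names a single whole brain. The description of the series instead names cerebellum and a younger age, and the names of the peaks also point to cerebellum, so the tissue remains uncertain. Each replicate had its own list of peaks called against the same IgG library, which means that errors of the IgG background were shared by both replicates. The polyclonal PHF10 antibodies recognize all isoforms of the protein.

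Replicate 1 had 251 peaks and replicate 2 had 141. The depth of the library relative to IgG, derived from the fold and p of the peaks, was 1.38 in replicate 1 and 1.14 in replicate 2. Peaks lay within 250 bp of a start at 1.3% of all protein-coding genes. Among the promoters of cell type markers, they lay at 2 of 8 neuronal genes (Elavl3 and Rbfox3) and at 2 of 4 genes of cerebellar granule neurons. The latter were Neurod1 and Zic1, while Gabra6 and Pax6 of the same list had no peak. Peaks lay at 0 of 4 genes in each list for forebrain neurons, astrocytes, oligodendrocytes, microglia and endothelium. At that share, lists of this size without a peak say nothing about the cell type, and the 2 granule neuron genes with a peak do not settle the tissue.

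The RNA genes at which both replicates had a peak are shown by one sequence per class, taken from the mm10 genome and written 5′ to 3′ on the strand of the gene. Capitals mark the Sm site, where the ring of Sm proteins binds, in U1 and U11, and boxes C and D in U3.
Rnu1a1, chr11:87422867-87423030, plus strand: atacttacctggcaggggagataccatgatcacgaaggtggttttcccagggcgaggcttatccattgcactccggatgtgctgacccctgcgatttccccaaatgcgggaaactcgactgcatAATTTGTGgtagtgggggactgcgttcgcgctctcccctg
Rnu11, chr4:132270080-132270213, minus strand: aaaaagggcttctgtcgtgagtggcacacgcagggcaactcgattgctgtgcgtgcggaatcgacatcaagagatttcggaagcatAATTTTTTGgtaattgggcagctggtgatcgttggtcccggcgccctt
Rnu3b1, chr11:87443237-87443451, plus strand: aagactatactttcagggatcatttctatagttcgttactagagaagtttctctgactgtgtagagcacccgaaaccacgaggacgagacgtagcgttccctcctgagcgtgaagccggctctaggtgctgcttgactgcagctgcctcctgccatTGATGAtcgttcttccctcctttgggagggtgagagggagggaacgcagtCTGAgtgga
The U1 gene begins with ATACTTACCTG, the stretch that pairs with the 5′ splice site. Gm22068 had the same 164 bases as Rnu1a1, and Gm22513 differed from it by T60C, counted from the first base of the RNA and with the base of Rnu1a1 first. All 4 annotated Rnu3b genes had the same 215 bases.

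The stretches just upstream of the genes are shown for the classes with their own promoter, since the factors that start transcription of these genes bind there. Each covers the 70 bases before the first base of the RNA, and capitals mark the letters CCGTNA between positions −65 and −36.
Rnu1a1, chr11:87422797-87422866, plus strand: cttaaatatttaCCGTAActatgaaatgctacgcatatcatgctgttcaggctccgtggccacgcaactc
Gm22068, chr11:87426646-87426715, plus strand: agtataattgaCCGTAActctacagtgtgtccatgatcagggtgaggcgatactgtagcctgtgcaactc
Gm22513, chr12:54696712-54696781, plus strand: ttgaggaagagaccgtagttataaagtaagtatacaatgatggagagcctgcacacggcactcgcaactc
Rnu11, chr4:132270214-132270283, minus strand: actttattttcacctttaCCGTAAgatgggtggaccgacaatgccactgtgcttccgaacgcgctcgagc
Rnu3b1, chr11:87443167-87443236, plus strand: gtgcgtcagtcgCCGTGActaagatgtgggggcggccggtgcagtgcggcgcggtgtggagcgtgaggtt
Gm24265, chr5:115489389-115489458, plus strand: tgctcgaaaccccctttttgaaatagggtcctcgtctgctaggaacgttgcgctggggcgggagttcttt
Snord118, chr11:69073357-69073426, plus strand: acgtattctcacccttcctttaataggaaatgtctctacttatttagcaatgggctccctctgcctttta
Rnu3b3 had the same 70 bases as Rnu3b1. The letters CCGTNA began at −58 in Rnu1a1, Rnu3b1 and Rnu3b3, at −59 in Gm22068 and at −52 in Rnu11. Gm22513 had CCGT at −58, followed by letters that did not match. It was in turn the 1 member that matched a longer pattern of human proximal elements, which the other 5 U1, U3 and U11 genes did not. That pattern stood in the window in 0.446% of all annotated snRNA, snoRNA and scaRNA genes. The letters were chosen after these sequences had been read, so their presence is a description. CCGTNA stood on the strand of the gene in this window in 5 of the 9 genes and in 0.652% of the 2912 annotated snRNA, snoRNA and scaRNA genes, or 19 of them. Genes with these letters and no peak included Rnu3b4, Rnu3b2, the U2 gene Rnu2-10 and the U4 gene Gm24407, which lies next to Gm24265, a U4 gene with a peak and without the letters. CCGT alone stood in the window in 6 of the 9, the U1, U3 and U11 genes, and in 2.27% of all.

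**Figure D1:**
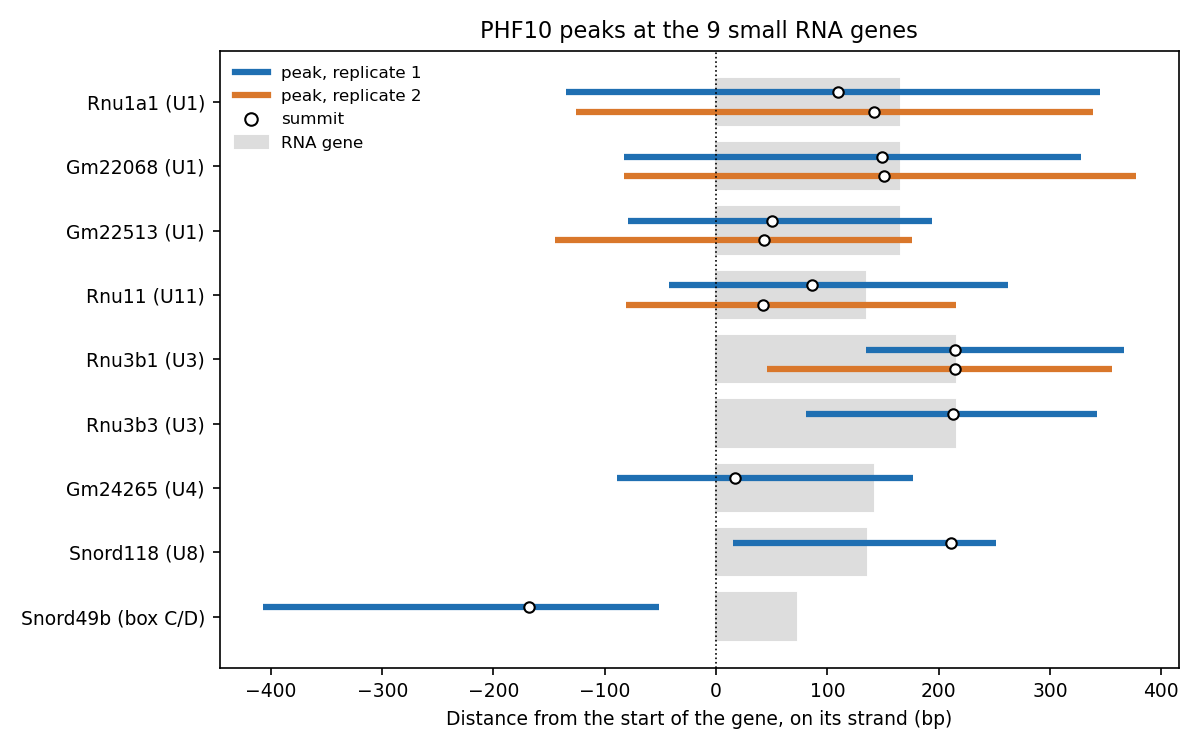
Peaks of PHF10 at the 9 genes, as the distance in bp from the start of the gene on its strand, with replicate 1 as the upper bar, replicate 2 as the lower bar, the summit as an open circle and the RNA gene as a grey box. In 10 of the 14 peaks the summit lies in the box, at both U3 genes it lies within 1 base of the end, and at Snord49b the peak lies wholly upstream.

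The 9 genes carried 14 peaks, 9 in replicate 1 and 5 in replicate 2. A peak was called in both replicates at 5 genes (Rnu1a1, Gm22068, Gm22513, Rnu11 and Rnu3b1) and in replicate 1 alone at 4 (Rnu3b3, Gm24265, Snord118 and Snord49b). Over the whole genome replicate 2 also had fewer peaks, 141 against 251. The share of all 303 sites called in both replicates is not given here, so these counts are not read as particular to the members. Summits were located relative to the first and to the last base of the gene on its strand, with negative values upstream. The summit lay in the RNA gene in 10 peaks, downstream of it in 3 and upstream of it in 1. It was downstream of the start at 8 of the 9 genes in every replicate with a peak, and the median position over the genes was 126 bp from the start.

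Among the members the highest enrichment was at a U1 gene, Gm22068. Gm22068 (chr11:87426716-87426879) had a fold over IgG of 14.3 in replicate 1 and 13.2 in replicate 2, with −log10 p of 39.4 and 35.4. Its peaks were 412 and 461 bp wide, and the summits lay 149 and 151 bp from the start, which is −14 and −12 bp from the end. The replicates thus placed the summit 2 bp apart, and the mean fold of 13.7 ± 0.824 (SD, n = 2) ranked 2nd among the 301 nuclear sites.

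Rnu1a1 had folds of 10.0 and 9.99 in replicates 1 and 2, with −log10 p of 30.1 and 35.0. The peaks spanned 481 and 466 bp, and the summits lay 110 and 142 bp from the start, or −53 and −21 bp from the end. This site had the mean fold that differed least between replicates among the 5 shared sites (10.0 ± 0.0182, SD, n = 2) and ranked 7th. The IgG background at the summit was 3 fragments in replicate 1 and 4 in replicate 2, where Gm22068 had 2 in each.

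Gm22513 (chr12:54696782-54696945), the third U1 gene with a peak, had folds of 6.71 and 8.77 and −log10 p of 14.9 and 22.1. Its peaks were 274 and 322 bp wide, with summits 50 and 43 bp from the start and −113 and −120 bp from the end. Both replicates therefore had the summit in the first part of this gene, unlike at Rnu1a1 and Gm22068, where all 4 summits lay over 100 bp from the start. The mean fold was 7.74 ± 1.46 (SD, n = 2).

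Rnu11, the gene of U11 RNA of the minor spliceosome, had folds of 7.48 and 5.93, with −log10 p of 18.4 and 12.7. The peaks were 305 and 298 bp wide. Their summits lay 86 and 42 bp from the start and −47 and −91 bp from the end, inside the gene in both replicates. The mean fold was 6.71 ± 1.10 (SD, n = 2). An exon of the long noncoding RNA gene Gm28872 covers Rnu11 on the opposite strand, with its start 157 bp from that of Rnu11, so the summits also lay 71 and 115 bp downstream of this second start. A ChIP-seq peak has no strand, and these starts cannot be told apart.

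Rnu3b1, a gene of the U3 snoRNA, had folds of 6.84 and 7.91 and −log10 p of 13.2 and 16.3. Its peaks were 233 and 311 bp wide. Both replicates had the summit at the same base, 215 bp from the start and 1 bp past the end, and neither peak reached the start of the gene. The mean fold was 7.37 ± 0.753 (SD, n = 2). Rnu3b3 (chr11:87448627-87448841) had a peak in replicate 1 only, with a fold of 9.49, −log10 p of 21.6 and a width of 262 bp. Its summit lay 213 bp from the start and −1 bp from the end. By this single fold it ranked 9th among the nuclear sites, while sites with a peak in both replicates were ranked by their mean.

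The other genes had weaker peaks, each in replicate 1 only. Gm24265 (chr5:115489459-115489599), a U4 gene by its RefSeq product, had a fold of 5.68, −log10 p of 9.80, a width of 267 bp and a summit 17 bp from the start and −123 bp from the end. A second U4 gene, Gm24407, with 98.6% identity, starts 795 bp downstream and had no peak. Snord118 (chr11:69073427-69073561) had the lowest fold, 4.66, with −log10 p of 7.06. Its peak was 238 bp wide and its summit lay 211 bp from the start and 77 bp past the end.

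Snord49b (chr11:62603079-62603150) had a fold of 5.68, −log10 p of 9.80 and a width of 357 bp. The peak ended before the gene, and its summit lay −168 bp from the start and −239 bp from the end. The gene sits in an intron of the noncoding host 2410006H16Rik, and the summit lay 34 bp downstream of the start of the host. The peak was thus nearer to the start of the host than to the snoRNA.

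**Figure D2:**
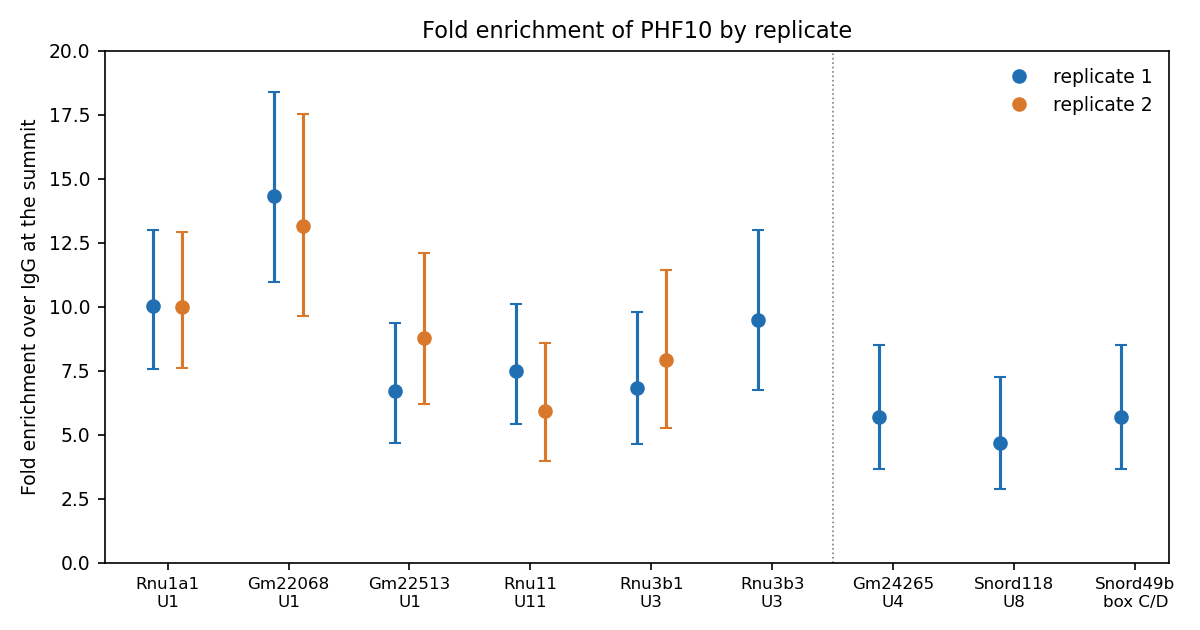
Fold enrichment over IgG at the summit of each peak, by gene and replicate, with bars for the exact 95% Poisson interval of the fragments at the summit, which covers counting error only. The U1, U3 and U11 genes are left of the dotted line, and the 3 genes right of it have a value in replicate 1 only.

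Each pair of fold and p corresponded to a count of fragments over the summit, which gives the precision of the fold. Rnu1a1 had 54 fragments in replicate 1 (95% exact Poisson interval 40.6 to 70.5) and 56 in replicate 2 (42.3 to 72.7). Gm22068 had 58 (44.0 to 75.0) and 44 (32.0 to 59.1), Gm22513 had 32 (21.9 to 45.2) and 35 (24.4 to 48.7), Rnu11 had 40 (28.6 to 54.5) and 26 (17.0 to 38.1), and Rnu3b1 had 27 (17.8 to 39.3) and 26 (17.0 to 38.1). At equal depth, the ratio of replicate 2 to replicate 1 ranged from 0.785 at Rnu11 (0.460 to 1.32) to 1.32 at Gm22513 (0.795 to 2.20), and the interval included 1 at all 5 genes. These genes were chosen because both replicates called them, so the ratios describe the sites and do not test agreement.

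At the genes with a peak in replicate 1 only, the absence from replicate 2 was set beside the calling limit. With the IgG background of 1.85 fragments solved at all 4 of these summits, replicate 2 needed 12 fragments for a p under 1e-05, and no peak of either list was under 200 bp wide. The counts of replicate 1, brought to the depth of replicate 2, were 17.4 fragments at Gm24265 and at Snord49b (10.8 to 26.6 in each) and 14.1 at Snord118 (8.20 to 22.5). Both intervals included 11, the highest count below the limit. Rnu3b3 had 36 fragments in replicate 1 (25.2 to 49.8), or 29.8 at the depth of replicate 2 (20.9 to 41.2). That interval lay above 11. These intervals hold counting error only, and the 4 genes were picked for their absence from replicate 2, so the values are no test of a difference between the replicates.

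Relative to the other members, the U1, U3 and U11 genes had higher folds, with a median of 8.61 over 6 sites (6.71 to 13.7) against 5.68 over the 3 U4, U8 and Snord49b sites (4.66 to 5.68). The ranges did not overlap. The difference of the medians, 2.93, was 1.54 among the sites in which at least 90% of the stretches of 100 bases occur once in the genome, which left Gm22513 and Rnu11 in the first class. Since the sites were selected by their peaks, and the other 3 were called in a single replicate, nothing beyond these values was drawn from the difference. The widths of the sites overlapped, at 262 to 481 bp for the U1, U3 and U11 genes and 238 to 357 bp for the others. The summits of the other 3 genes were the most scattered, from −168 to 211 bp from the start. Over all 9 members the median fold was 7.37 and the median width 340 bp, against 5.68 and 249 bp over the other 292 nuclear sites. These sets were not matched for the number of replicates with a peak, which bears on the width of a merged site. It bears on the fold as well, since the fold of a site was averaged only over the replicates with a peak. The members were also poorer in G and C, with a median of 44.3% against 67.0% in the other sites. Snord49b, next to the start of its host gene, was the exception at 66.9%, while the other 8 ranged from 43.0% to 47.2%.

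The chromosome 11 group held Rnu1a1, Gm22068, Rnu3b1 and Rnu3b3, all on the plus strand and inside introns of Tex14, a gene known for its part in the intercellular bridges of germ cells. The group spanned 26.2 kb (chr11:87422732-87448969), with gaps of 3420, 16189 and 5103 bp between its 4 sites. It carried 7 peaks, 4 in replicate 1 and 3 in replicate 2, of the 61 peaks on the chromosome. The nearest sites outside it lay 7039323 bp upstream and 538306 bp downstream. A start of Tex14 lies 875 bp downstream of that of Gm22068, and the summits at Gm22068 were −726 and −724 bp from it, so they were much nearer to the U1 gene. The U6 gene Gm23137 (minus strand) stands between both U3 genes of the group and had no peak.

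**Figure D3:**
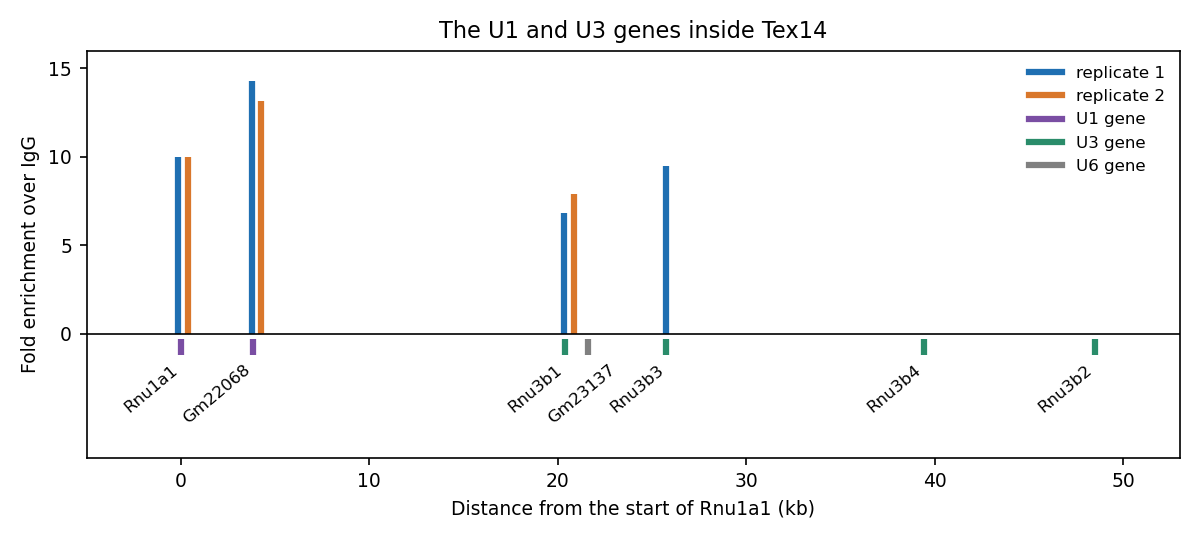
Fold enrichment over IgG of the 7 peaks in the group on chromosome 11 against the distance in kb from the start of Rnu1a1, with each annotated snRNA and snoRNA gene as a mark below the axis. Peaks stand at the U1 genes and at 2 of the 4 U3 genes, and neither Rnu3b4 nor Rnu3b2 has one.

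The U3 genes Rnu3b4 (chr11:87462286-87462500) and Rnu3b2 (chr11:87471368-87471582) follow within the same host gene, and neither replicate had a peak there. All 4 Rnu3b genes were identical over the RNA and over at least 250 bases upstream. Identity extended 266 bases upstream between Rnu3b1 and Rnu3b3, and 308 bases between Rnu3b4 and Rnu3b2. The copies parted soon after the last base of the RNA. Identical bases numbered 3 after the end of Rnu3b1 and Rnu3b3, and 1 after that of Rnu3b1 and either uncalled copy, whereas Rnu3b4 and Rnu3b2 shared 24. The 50 bases after the end are shown because they are the sequence nearest to the summits in which the copies differ, and capitals mark matches to the 3′ box, searched as GTTT, up to 3 bases, AAA, 3 bases and AG.
Rnu3b1, chr11:87443452-87443501, plus strand: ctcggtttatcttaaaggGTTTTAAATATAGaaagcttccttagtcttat
Rnu3b3, chr11:87448842-87448891, plus strand: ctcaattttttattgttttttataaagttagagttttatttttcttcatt
Rnu3b4, chr11:87462501-87462550, plus strand: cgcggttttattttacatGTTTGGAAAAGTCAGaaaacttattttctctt
Rnu3b2, chr11:87471583-87471632, plus strand: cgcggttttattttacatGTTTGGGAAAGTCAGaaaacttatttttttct
The pattern stood in the same window in 3 of the 9 genes (Rnu1a1, Rnu3b1 and Gm24265) and in 0.549% of all annotated snRNA, snoRNA and scaRNA genes. It was thus present after 2 U3 genes without a peak as well as after Rnu3b1.

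The files rest on reads of about 100 bases that aligned to a single place, so the share of read positions that occur once in the genome was computed for each base, with reads extended to 200 bp. In Rnu3b1 and Rnu3b3 this share was 0% at the start of the gene and 73.0% at its end. At the summits it was 73.5% for Rnu3b1 and 72.5% for Rnu3b3. In other words, no read with 1 alignment could have covered the start of these genes, and the summits stood on the downstream flank, where such reads were possible. Such reads were also possible farther upstream, where no peak was called. There the share was 73.5% at −285 bp from the start of Rnu3b1 and 74% at −265 bp from that of Rnu3b3. In Rnu1a1 and Gm22068 the share fell no lower than 63.0% and 64% within 250 bp of the gene. At their 4 summits it was 67.5% to 78.8%, and these summits lay on the downstream side. Gm22513 had 98.5% at both summits, and Rnu11, Gm24265, Snord118 and Snord49b had 100%. Summits near the start (17 to 86 bp) were found at the 3 snRNA genes where nearly all positions of 100-base reads occur once. Summits farther from it were found at the U1 and U3 genes with repeated sequence. For stretches of 50 bases inside the gene, the share that occur once was 41.7% at Gm22513, 58.7% at Gm24265 and 100% at Rnu11. The part of the repeated sequence in the positions of the summits was not tested. Snord118, free of repeats at 100 bases, also had its summit far from the start.

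**Figure D4:**
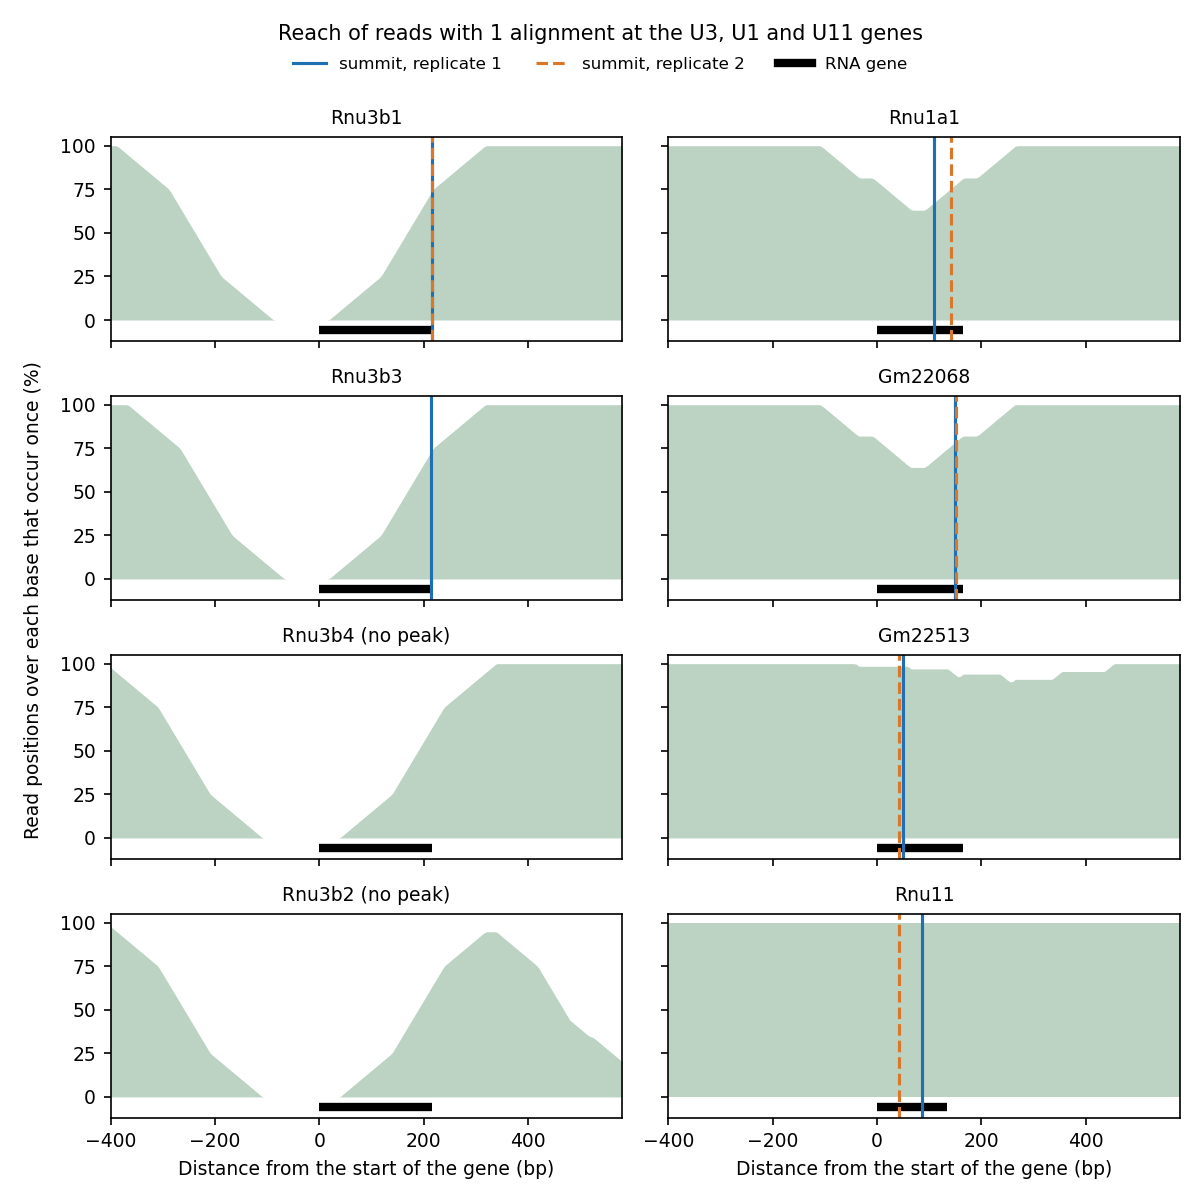
Share of the read positions over each base that occur once in the genome (%, reads of 100 bases extended to 200 bp) against the distance in bp from the start of the gene, with the summits as vertical lines and the gene as a black bar. At Rnu3b1 and Rnu3b3 the summits lie on the slope after the repeated gene, where the share is 73.5% and 72.5%, and at Rnu11 the share is 100% throughout.

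The same share at the end of Rnu3b4 and Rnu3b2 was 62.5%, only somewhat lower than the 73.0% of the called copies. The fragments at these copies and the local IgG background were not given in the lists, and the part of the repeated sequence in the absence of peaks was not tested.

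Some copies of U1 without a peak were wholly or largely beyond the reach of single-alignment reads and others were not. By sequence, 58 annotated snRNA genes had at least 80% identity to Rnu1a1, and 3 had a peak. Among the 11 with at least 99% identity, the 3 genes with a peak had a mean share of 88.9% to 96.6% over the gene and 250 bp on either side. The 6 genes of chromosome 12 that follow Gm22513 within 41.8 kb had a mean of 0% to 15.1% and no peak, although all 6 had CCGT in the upstream window. The highest share at a single base was 50% at Gm24305 and 0% at Gm25679 and Gm26444. The remaining 2 had 91.0% and 92.2%, no CCGT in the window and no peak. Of all 58 genes, 41 had no CCGT in the window, a share of 91.0% to 100% and no peak. The 3 genes with a peak were among the 17 that had it, and of the other 14, 12 had a share of at most 15.1%. The last 2 were Gm24830, with 95.2% identity to Rnu1a1 and a share of 82.8%, and Gm22978, with 80.5% identity and a share of 100%. These groupings were made after the values had been seen and were not tested. The letters CCGT were likewise chosen after the sequences of genes with a peak had been read. At the share of 0.343% over all annotated snRNA, snoRNA and scaRNA genes, 0 peaks in 41 genes carry no information about these letters.

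Further upstream letters differed between the members. The octamer ATGCAAAT, read by POU factors, stood on either strand between −300 and −150 in Gm22068 (−227), Rnu11 (−215) and Snord118 (−248), and in 2.23% of all annotated snRNA, snoRNA and scaRNA genes. The letters CCCANNATG, the core of the ZNF143 site, stood on either strand between −300 and −50 in Gm24265, Snord118 and Snord49b, that is in none of the U1, U3 and U11 genes, and in 3.64% of all. TATAA was found between −35 and −20 in 0 of the 9 genes, and in 2.58% of all. The Sm site stood in all U1, U11 and U4 genes, and boxes C and D in all U3, U8 and Snord49b genes among the members. Over all annotated snRNA, snoRNA and scaRNA genes, the Sm site stood in 8.62%, box C in 14.6% and box D in 20.1%.

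Genes of the proteins that work with these RNAs were examined in the same way. PHF10 peaks lay within 250 bp of a start at 1.3% of the 21951 protein-coding genes, and at 2 of the 68 genes in the lists of snRNP, snoRNP, SNAPc, Integrator, little elongation complex, activator, cap and export proteins, a count too small to be read against that share. Nop56, which encodes a core protein of box C/D snoRNPs, had folds of 6.19 and 7.71 in replicates 1 and 2, with summits −4 and 4 bp from the start. Ints6, which encodes a subunit of the Integrator complex that cuts snRNA precursors at the 3′ end, had a fold of 7.32 in replicate 1 only, with the summit 27 bp from the start. None of the 3 U1 snRNP, 8 Sm, 9 U11/U12 snRNP or 5 SNAPc genes had a peak, nor had any of the 12 genes of PBAF subunits.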

How the data were processed

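According to the paper's methods, the authors sequenced single-end reads of about 100 bases, trimmed them with cutadapt, aligned them to mm10 with Bowtie 1, kept reads with a single alignment, removed duplicates with Picard and ran MACS2 against the control with 200 bp extension. Blacklisted peaks had been dropped. The deposited values were fold enrichment, a ratio with 1 added to both terms, −log10 p, −log10 q and a score that repeats −log10 p. No column was left out.

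Python 3.11.15, numpy 2.4.6, pandas 2.3.3, scipy 1.17.1, numba 0.67.0, Biopython 1.88, pysam 0.24.0 and matplotlib 3.10.9 were used. Depth was not in the lists. It and the fragments at each summit were solved from fold and p, a step tested on simulated data. Intervals are 95% exact intervals for counting error only. Overlapping gene models of 1 symbol were joined. Sequences and stretches of 100 bases were read from GRCm38, without alternate scaffolds, and names from GENCODE M21 and RefSeq.

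Members, lists and motifs were chosen with earlier results of these data known. Named genes were the members, other snRNA or snoRNA genes with a peak (1 gene, not reported here), genes of the group on chromosome 11, genes with a start within 1000 bp of a site and list genes with a peak. Gm24830, Gm22978 and the further genes with Rnu symbols were chosen after their values were seen. Alternatives covered the distance, thresholds, replicates, summit, read length and motif window.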

Additional observations from a re-analysis of the deposited data

How the results depend on the processing

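Of 38 alternatives, 26 left a count within 1.5 times of the reported one, or another value within the SD between replicates or its 95% binomial interval. Some of these could not have come out otherwise. The 9 members were chosen by their peaks and all had one in replicate 1, so a wider distance or leaving out replicate 2 had to keep all 9. Without 1 PHF10 replicate, 5 to 9 members and 6 to 9 annotated snRNA and snoRNA genes had a peak, with the lower numbers without replicate 1, and 5 of either had one in both replicates. The median summit position was 110 to 142 bp without 1 replicate and 106 bp for the peak centre, against 126 bp. The share of stretches of the members' sites that occur once, 87.9% for 100 bases, was 77.6% for 50 and 73.6% for 36 bases, which bears on trimmed reads. The difference in median fold between the U1, U3 and U11 sites and the others, 2.93, was 1.54 in sites with at least 90% such stretches, an alternative added after seeing the data, which left Gm22513 and Rnu11 in the first class. It could not be computed without replicate 1, where the other sites had no peak. A longer pattern of human proximal elements, also added later, matched 1 member (Gm22513) in place of 5. List genes with a peak numbered 1 to 2 without 1 replicate, with 1 (Nop56) without replicate 1. No paired analysis was possible because the replicates form a single group.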

Other observations

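Besides the members, 13 annotated genes with Rnu symbols had no peak in either replicate, and 6 of them had a share of read positions that occur once of at least 90% over the gene and 250 bp on either side. Rnu12, the U12 gene of the minor spliceosome, Rnu7, the U7 gene for the processing of histone messenger RNA, and Rnu3a, a U3 gene on chromosome 10, each had 100%, and Rnu5g, a U5 gene, had 99.2%. Rnu1b1 and Rnu1b2, U1 genes on chromosome 3, had 1.25% each. Rnu2-10, a U2 gene, had 78.3%. By RefSeq product, a peak lay within 250 bp of 3 of 123 U1 genes, 1 of 11 U4 genes, 1 of 5 U11 genes, 2 of 5 U3 genes, 0 of 708 U6 genes, 0 of 45 U7 genes, 0 of 29 U2 genes and 0 of 10 U5 genes. At the share of 0.343% over all 2912 annotated snRNA, snoRNA and scaRNA genes, a count of 0 in the U2, U5 and U7 genes carries no information. The 0 of 708 U6 genes is also not far from that share and was not tested. Which of these genes are expressed in brain was not examined here.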
